A study of Homo sapiens and Mus musculus with 13 samples.

Results

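The regions described here are the very long peaks of DRIPc-seq signal in NT2 cells that carry signal on 1 strand only. They were chosen as DRIPc-seq peaks on chromosomes 1 to 22 that are at least 10 kb long and share no base pair with a peak of the opposite strand. This rule took 1815 of the 85289 autosomal peaks, or 2.13%, out of 88310 peaks in the whole list. The members were chosen by measured values, the length and the strand overlap of their own DRIPc-seq signal, so both are given as descriptions only. No value in the text has a test between conditions.

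NT2 is a human embryonal carcinoma line derived from a testicular tumour, with pluripotent properties. K562 cells come from a human erythromyeloblastoid leukaemia, and 3T3 is a mouse embryonic fibroblast line. NT2 DRIPc-seq, with no RNase named in its labels, was done on 2 samples that share 1 peak list, and each other list came from 1 sample. The lists set beside it were NT2 DRIP-seq after digest A (HindIII, EcoRI, BsrGI, XbaI and SspI), NT2 DRIP-seq after digest B (BamHI, NcoI, ApaL1, NheI and PvuII), and NT2 DRIP-seq labelled RNaseA and RNaseH. The K562 DRIP-seq list completes the set. All of them except digest B used the enzymes of digest A, DRIPc-seq included. With 1 list per group there is no replicate check for any value below, and a difference between groups cannot be told apart from one between libraries. The lists give positions without read counts, so depth is unknown.

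An R-loop forms when RNA pairs with its DNA template and leaves the other DNA strand unpaired. R-loops are known at promoters in CpG islands, where G-rich RNA favours pairing, and also along gene bodies and at transcription ends. DRIP-seq recovers the hybrids on restriction fragments with an antibody and reads their DNA, without strand. DRIPc-seq reads the RNA part of the recovered hybrids, so its peaks have a strand and are not bound to restriction fragments. RNase H removes RNA paired with DNA and is the negative control, while RNase A removes RNA that is free. The strand in the list is taken below as that of the RNA, so that 5' and 3' follow transcription. The file does not say this, and every 5' and 3' would be exchanged if the convention were the reverse. Positions are on hg19, counted from 1. Genes, exons and base content under the peaks were not analysed here, since no hg19 annotation or sequence was used.

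The long single-strand peaks fell on both strands in similar numbers. There were 922 on the plus strand (50.8%, exact Clopper-Pearson 95% interval 48.5 to 53.1%) and 893 on the minus strand, where 52.3% of all autosomal DRIPc peaks were plus. Intervals here and below cover counting error only, and neighbouring peaks are not independent. Their lengths had quartiles of 11225 and 15497 bp around a median of 12819 bp, and the median of all autosomal peaks was 1754 bp. Plus strand peaks had a median of 12867 bp and minus strand peaks 12760 bp. They summed to 26.1 Mb, 11.6% of the autosomal length listed by DRIPc-seq. Few went far past the threshold: 195 were at least 20 kb long, 34 at least 30 kb and 9 at least 40 kb. The 3 nearest to the threshold from above, chosen for that, lay on chromosome 6 from 12119686 to 12129685 (10000 bp), on chromosome 7 from 152526643 to 152536642 (10000 bp) and on chromosome 15 from 40699532 to 40709533 (10002 bp). The 3 nearest from below were each 9997 bp long, on chromosome 1 from 144193379 to 144203375, on chromosome 3 from 160257955 to 160267951 and on chromosome 7 from 126461423 to 126471419. Digest A covered 7.73%, 32.3% and 99.99% of those just inside, and 100%, 35.8% and 0% of those just outside. The threshold thus cuts through a continuous range of peaks.

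The longest peak of all lay on chromosome 6 from 112120935 to 112187371, on the minus strand, and was 66.4 kb long. Digest A covered 15.6% of it in scattered peaks, digest B 45.8%, RNase A 0.488%, and RNase H and K562 none. Same-strand DRIPc peaks stood 233 bp beyond its 5' end and 796 bp beyond its 3' end. The longest on the plus strand was on chromosome 1 from 145311294 to 145368195 (56.9 kb). It was filled by DRIP signal, with 99.4% of its length covered by both digests and 96.4% by RNase A. It also held RNase H peaks over 12.4% of its length and K562 peaks over 22.996%. How multi-mapping reads were handled was a step not given in the sources used here, and its part in these values was not tested.

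Other very long peaks carried DRIP signal in patches. On chromosome 6 from 161486013 to 161537557 (plus, 51.5 kb), digest A covered 18.9% and digest B 70.4%, and a same-strand peak adjoined its 3' end. On chromosome 11 from 130738537 to 130785736 (minus, 47.2 kb), the values were 40.5% and 50.7%, and on chromosome 4 from 52710087 to 52752308 (plus, 42.2 kb) they were 26.8% and 53.5%. These last peaks had no same-strand neighbour on the 5' side for 2.98 and 3.05 Mb, while the next peak on the 3' side was 693 and 306 bp away. On the opposite strand, the nearest peak on the 5' side was 68.3 kb away at chromosome 11, but also 3.05 Mb away at chromosome 4. Whether peaks could be called throughout these stretches was not tested, since no hg19 sequence was used. At the chromosome 11 region, peaks of digest A, digest B, RNase A and K562 each spanned the 5' end, and at the chromosome 4 region those of digest B and RNase A did. On chromosome 2 from 97843389 to 97883485 (plus, 40.1 kb), digest B covered 72.9% and digest A 39.8%, but digest A only 1.82% of the first 20% of length and 3.67% of the last 20%. The peak on chromosome 12 from 90055727 to 90094915 (minus, 39.2 kb) had 1.03% under digest A and 12.1% under digest B. That on chromosome 2 from 218710499 to 218754679 (minus, 44.2 kb) had none under digest A and 2.41% under digest B. Some of the longest peaks had no DRIP peak in any of the 5 lists. These were on chromosome 4 from 115936519 to 115984582 (minus, 48.1 kb) and on chromosome 8 from 121673716 to 121715843 (minus, 42.1 kb). The 10 longest regions thus ranged from no cover at all to almost full cover by digest A.

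**Figure D1:**
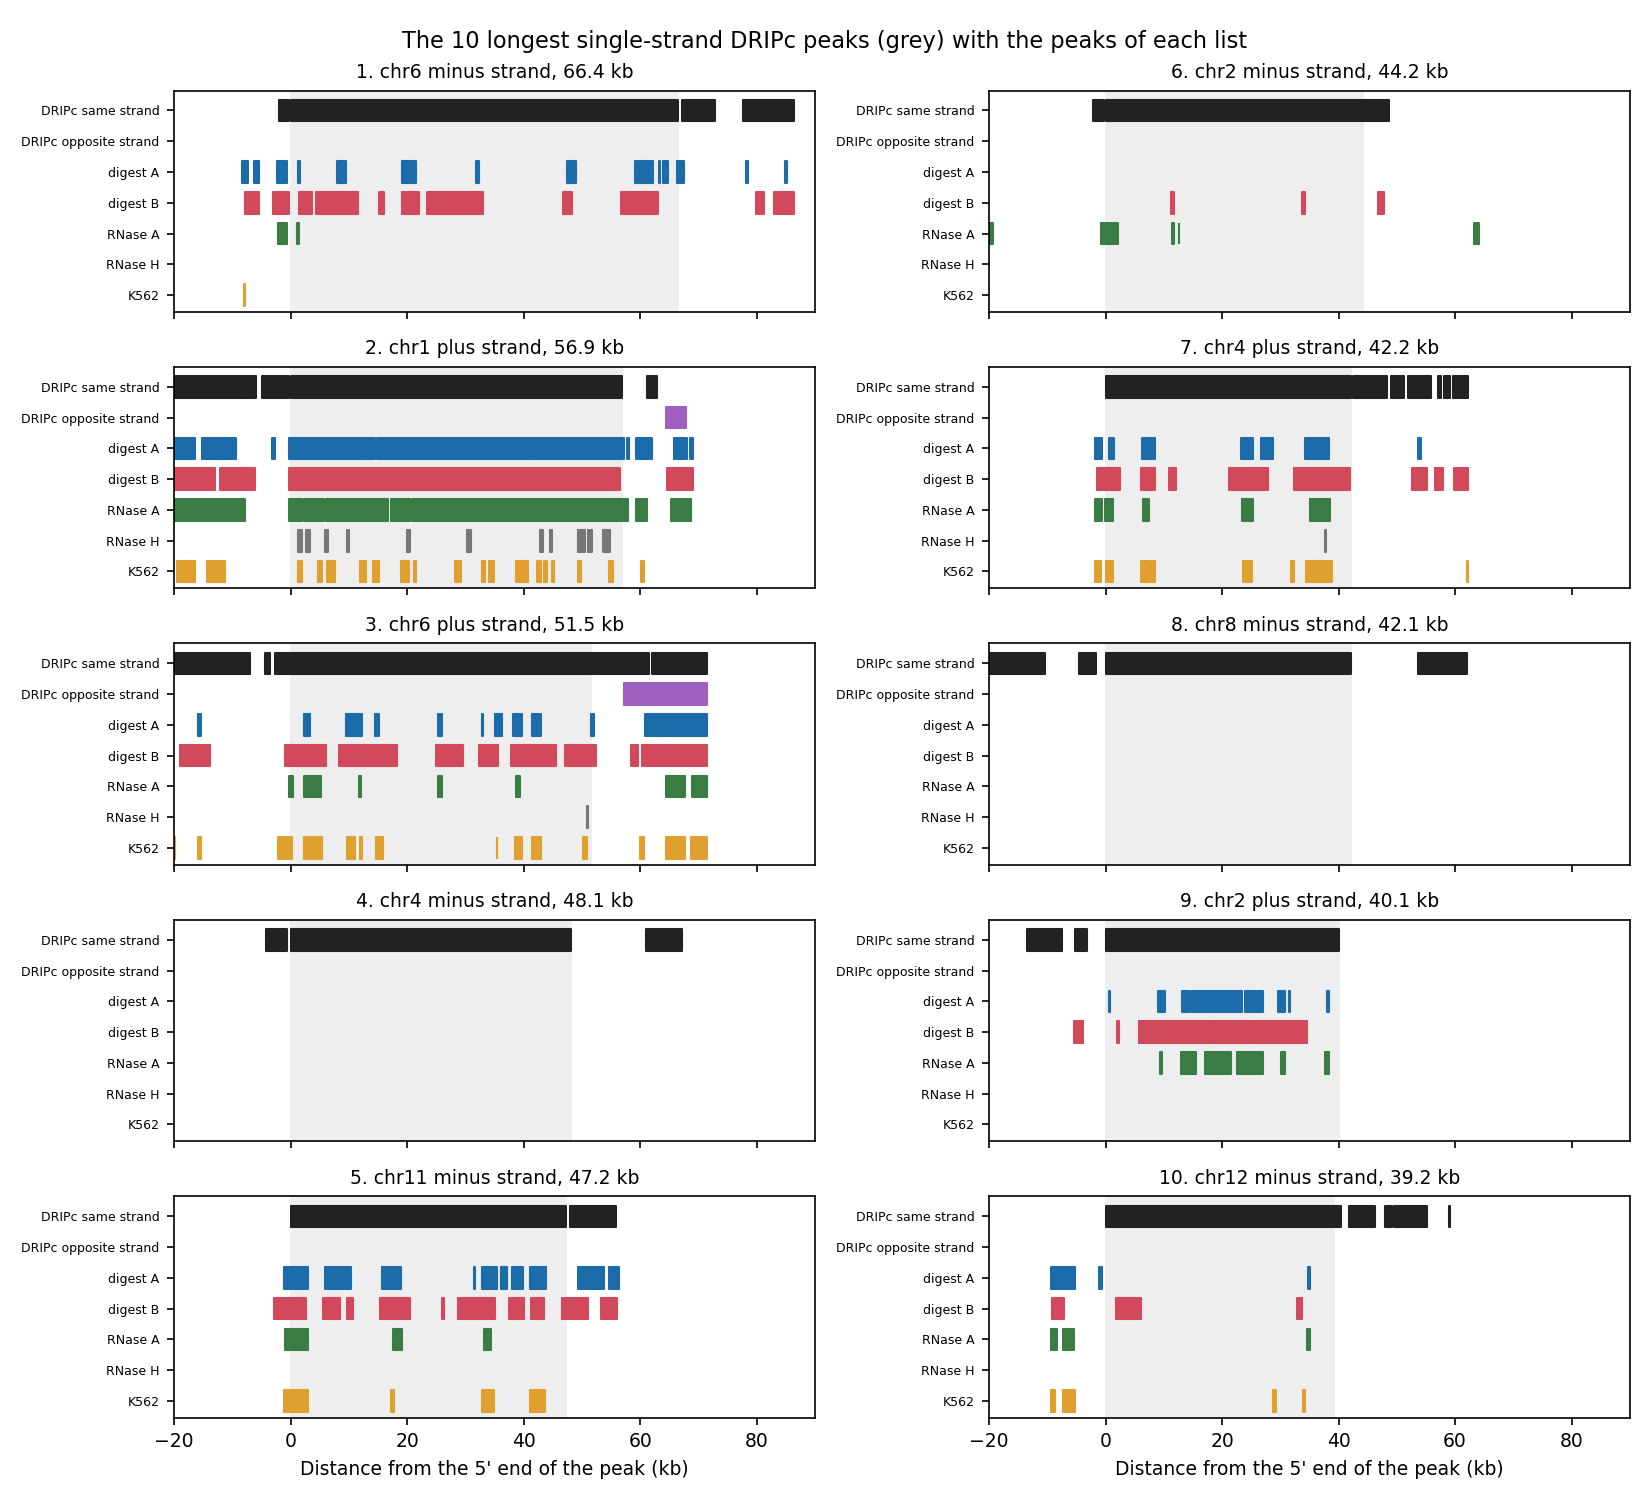
Peaks of each list (bars) at the 10 longest single-strand DRIPc peaks (grey), drawn by distance from the 5' end of the peak in kb, up to 20 kb beyond either end. The second region is filled by both digests, while the fourth and the eighth hold no DRIP peak of any list.

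DRIP-seq found most of the long single-strand peaks, but filled few of them. Digest A touched 1145 of 1815 by at least 1 bp, or 63.1% (60.8 to 65.3%), where it touched 45.8% of all autosomal DRIPc peaks. Digest B touched 1260, or 69.4% (67.2 to 71.5%), against 54.8% of all. RNase A touched 955, or 52.6% (50.3 to 54.9%), against 40.0% of all. A longer peak is more easily touched, so these shares are set beside the length covered. The mean share of length covered was 23.3% by digest A, 39.1% by digest B and 19.4% by RNase A. Over all autosomal peaks the same means were 30.5%, 44.8% and 28.0%, so the long single-strand peaks were touched more often and covered less. The median long single-strand peak was covered over 8.74% of its length by digest A, 27.2% by digest B and 2.96% by RNase A. Digest A covered at least 80% of the length in 159 of them (8.76%), against 22.1% of all autosomal peaks, and digest B in 432 (23.8%), against 38.4%.

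The digests found largely the same peaks. Both digests touched 1082 of the long single-strand peaks, which was 94.5% of those touched by digest A and 85.9% of those touched by digest B. Only 63 were touched by digest A alone, and 178 by digest B alone. The overlap of the digests over all autosomal DRIPc peaks was not computed, and a longer peak is more easily touched by both. The NT2 lists other than RNase H touched 1368 in all (75.4%, 73.3 to 77.3%), and 833 (45.9%) were touched by all 3 of these lists. Over all autosomal peaks the same shares were 61.1% and 33.3%. Where digest A touched, it did so with a median of 2 peaks per region, and 553 regions held 3 or more. The longest listed digest A peak in a touched region, cut at the region's ends, had a median of 2149 bp, and that of digest B 5257 bp. DRIP peaks that adjoin were not joined for this. Median cover was 27.3% of length where digest A touched and 59.8% where digest B touched. A touched region was thus a listed DRIPc peak in 1 piece that DRIP peaks mostly covered in part.

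Within the set, the longer peaks were the less covered by the lists other than RNase H. In the shortest quartile (10000 to 11222 bp) digest A touched 66.1% (61.5 to 70.4%) and covered a mean of 26.0% of length. In the longest quartile (15501 to 66437 bp) it touched 57.5% (52.8 to 62.1%) and covered 18.5%. Digest B cover went from 44.2% to 32.0% and RNase A cover from 21.1% to 15.5% between the same quartiles. K562 cover went from 14.4% to 9.15%. RNase H cover was 0.473% and 0.470% in these quartiles, and its touched share was 3.52% (2.03 to 5.66%) and 5.07% (3.24 to 7.50%). Plus strand peaks were touched by digest A in 65.4% of cases (62.2 to 68.5%) and minus strand peaks in 60.7% (57.4 to 63.9%), intervals that overlap.

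RNase H peaks were rare in the long single-strand peaks. Of the 1815, 68 were touched (3.75%, 2.92 to 4.73%), against 2.50% of all autosomal DRIPc peaks. RNase H peaks covered a mean of 0.428% of length, against 1.42% over all autosomal peaks. In the 68 the median cover was 5.25% of length, and 3 were covered over at least 50%. Of these 68, 65 were also touched by RNase A, 59 by digest A and 44 by K562. In K562, 709 of the NT2 regions were touched (39.1%, 36.8 to 41.4%), against 32.3% of all autosomal DRIPc peaks. Mean K562 cover was 12.2%, against 21.9% over all autosomal peaks. All 5 DRIP lists touched 42 regions (2.31%, 1.67 to 3.12%), near the 1.83% of all autosomal peaks. None touched 429 (23.6%, 21.7 to 25.7%), against 37.9% of all.

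Equally long DRIPc peaks that touch the opposite strand looked different. There were 535 of these, and digest A touched 97.4% (95.6 to 98.6%) of them and covered a mean of 74.0% of their length. Digest B covered 85.8%, RNase A 65.3% and K562 56.4%. RNase H touched 13.3% (10.5 to 16.4%) of them. For digest A, the mean cover of long single-strand peaks (23.3%) was close to that of single-strand peaks of 5 to 10 kb (27.1% over 7653 peaks) and of 1 to 5 kb (27.9% over 43177). In all 5 lists the mean cover of long single-strand peaks was below that of both shorter single-strand classes, and all 3 were far below the long peaks with an overlapping opposite strand. The DRIP lists were not part of the rule that chose the peaks.

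**Figure D2:**
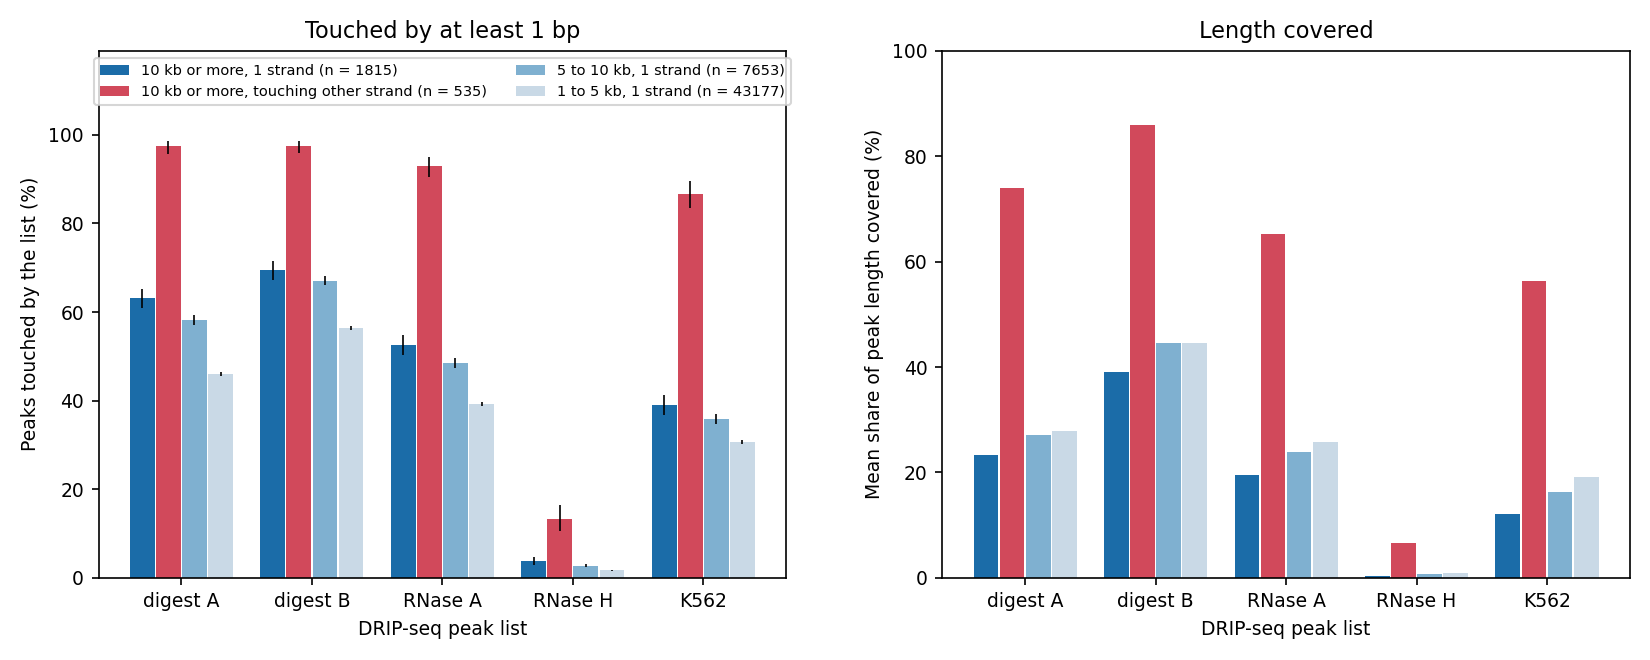
Share of DRIPc peaks touched by each DRIP list (left, with exact 95% intervals) and mean share of their length covered (right), for long single-strand peaks and 3 other classes of autosomal DRIPc peaks. Long peaks that touch the opposite strand stand highest in all 5 lists, and long single-strand peaks are covered less than shorter single-strand peaks.

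Outside the RNase H list, DRIP cover of the long single-strand peaks was higher inside than beyond their ends, and nearly level from 5' to 3'. In 10 equal bins along the peak, mean digest A cover stayed between 21.7% and 24.3%, digest B between 35.7% and 40.5%, RNase A between 18.5% and 20.6% and K562 between 11.3% and 13.5%. RNase H stayed between 0.278% and 0.556%. In the 20 kb of flank around each peak (10 kb on each side), the mean was 13.2% for digest A, 21.3% for digest B, 11.4% for RNase A and 7.66% for K562. Among the 1316 peaks where digest A cover inside and in the flanks differed, 907 were higher inside (68.9%, 66.3 to 71.4%). For digest B this was 72.4% (70.0 to 74.7%), for RNase A 68.7% (65.9 to 71.3%) and for K562 64.9% (61.6 to 68.1%). For RNase H it was 44.2% (35.5 to 53.2%) of 129. Around the long single-strand peaks, flank base pairs without any DRIPc peak had 7.94% digest A cover. Flank base pairs in DRIPc peaks had 23.6%, close to the 22.4% of the long single-strand peaks over all their base pairs. RNase H cover was 0.516%, 0.345% and 0.456% in the same 3 places. DRIP cover of these regions followed DRIPc cover, also just outside them, in the lists other than RNase H.

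**Figure D3:**
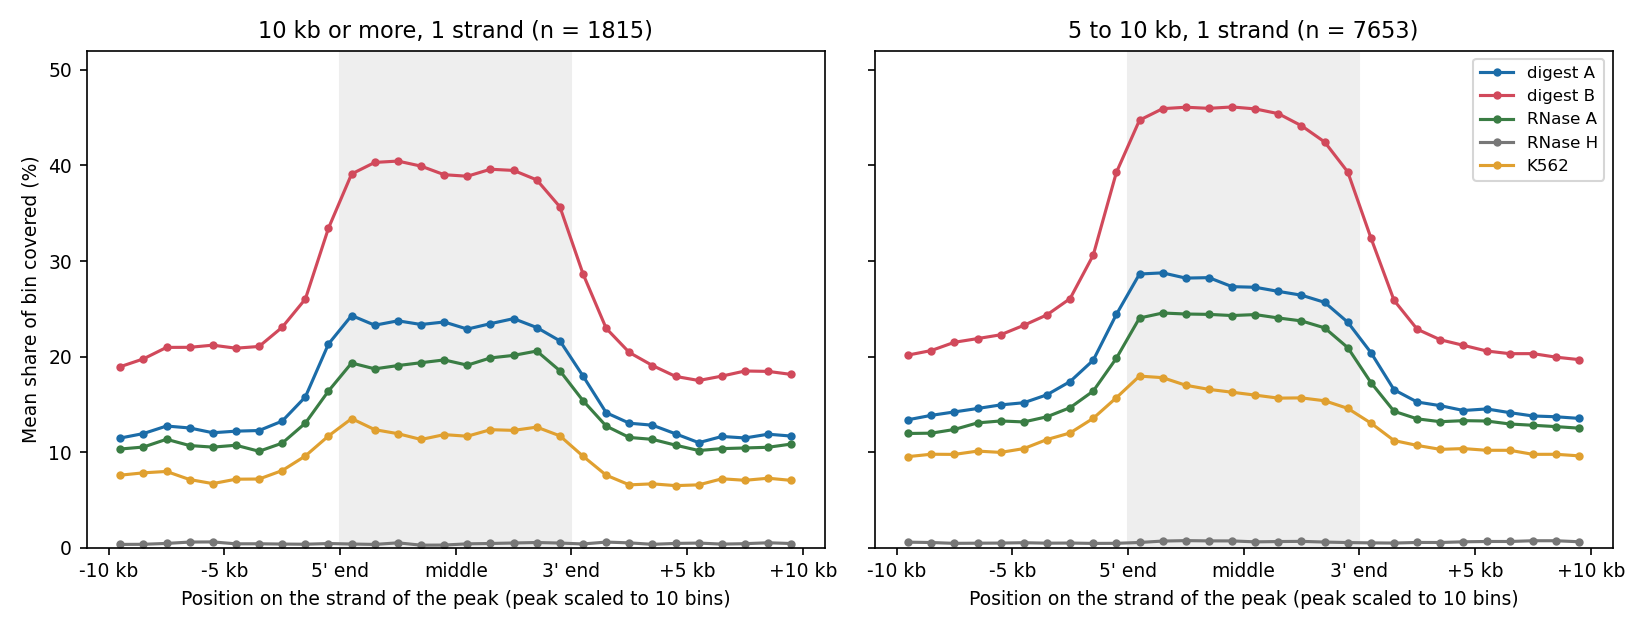
Mean share of each bin covered by the DRIP lists, from 10 kb before the 5' end to 10 kb past the 3' end (bins of 1 kb in the flanks, 10 equal bins in the grey peak), for long single-strand peaks (left) and single-strand peaks of 5 to 10 kb (right). Digest A cover stays between 21.7% and 24.3% inside the long peaks and is 15.8% in the second kb before the 5' end and 14.1% in the second kb past the 3' end, and RNase H stays near 0 in both panels.

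A small lean to the 5' end was seen in digest B over the whole set. The first 20% of length (the 5' zone) was compared with the last 20% (the 3' zone) in each peak. Digest B cover was higher in the 5' zone of 531 peaks and in the 3' zone of 425, so 55.5% (52.3 to 58.7%) of those that differed leaned to the 5' end. The mean cover was 39.7% in the 5' zone and 37.1% in the 3' zone. For digest A the numbers were 501 and 453 (52.5%, 49.3 to 55.7%), for RNase A 375 and 375 (50%, 46.4 to 53.6%) and for K562 307 and 272 (53.0%, 48.9 to 57.1%). These intervals include 50%, which does not show that cover was equal. Zones of 2 kb at each end gave 53.8% (50.5 to 57.2%) for digest A and 55.2% (50.9 to 59.5%) for K562, and K562 gave 54.02% (50.5 to 57.5%) with adjoining same-strand peaks joined first, all above 50%. At 15 kb or more, the digest B share was 53.4% (47.4 to 59.3%), an interval that includes both 50% and the 55.5% of the whole set. In the 4 length quartiles, from shortest to longest, the digest B share was 53.4%, 59.6%, 54.8% and 54.5%. Its interval lay above 50% in the second alone (52.999 to 65.9%). The K562 shares in the same order were 60.4% (52.3 to 68.04%), 52.1%, 42.6% and 55.6%, with an interval above 50% in the shortest quartile alone. Single-strand peaks of 5 to 10 kb leaned to the 5' end in 57.6% (56.0 to 59.3%) for digest A and 57.4% (55.7 to 59.1%) for digest B, and the values for digest A lie apart from those of the longer peaks. The shares of these shorter peaks were 58.3% (56.1 to 60.4%) for K562 and 54.8% (52.9 to 56.6%) for RNase A, also above 50%. On the plus strand digest B gave 57.3% (52.8 to 61.8%) and on the minus strand 53.6% (49.0 to 58.2%).

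Single regions could still be strongly one-sided, and pairs of lists mostly had the same higher end. Digest A reached the 5' zone but not the 3' zone of 260 regions, the 3' zone but not the 5' zone of 205, both zones of 532 and only the part between them in 148. Of the regions touched by digest A these were 22.7%, 17.9%, 46.5% and 12.9%. Touched single-strand peaks of 5 to 10 kb gave 26.4%, 17.1%, 43.99% and 12.5%. Where zones differed in both digest A and digest B, the same end was higher in 518 of 722 regions (71.7%, 68.3 to 75.004%). For digest A and RNase A this was 515 of 640 (80.5%, 77.2 to 83.5%), and for digest A and K562 399 of 507 (78.7%, 74.9 to 82.2%). The higher end was thus shared with a library of other enzymes and with one of another cell line in most of these regions. This sharing was not computed for other DRIPc peaks, so it is not known whether it is particular to the long peaks. The base at the 5' end itself lay in a digest A peak in 444 regions (24.5%) and that at the 3' end in 363 (20%). In digest B the numbers were 684 (37.7%) and 602 (33.2%). Among single-strand peaks of 5 to 10 kb the shares were 27.7% and 22.5% in digest A, and 43.4% and 37.02% in digest B.

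**Figure D4:**
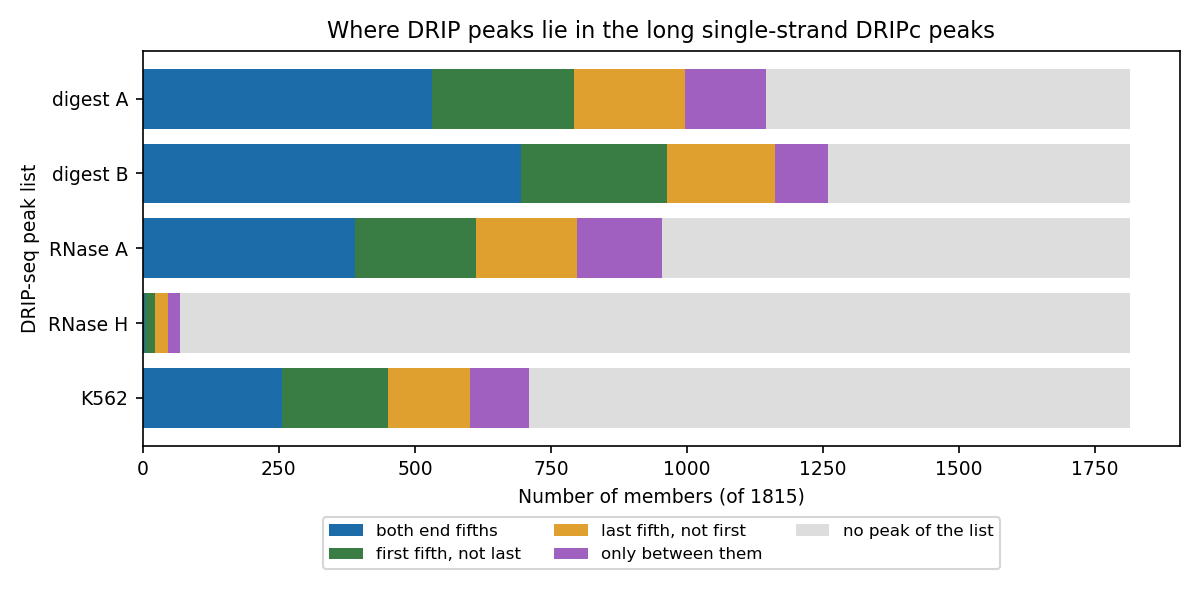
Number of long single-strand DRIPc peaks whose DRIP cover lies in both end zones (first and last 20% of length), in 1 of them, only between them, or nowhere, for each DRIP list. In the NT2 lists other than RNase H and in K562, 5' zone only outnumbers 3' zone only (260 and 205 in digest A), and cover of both zones is the largest class of touched peaks.

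The 3 regions with the largest lean to the 5' end in digest A, among those covered over 20 to 80%, had the whole 5' zone covered and none of the 3' zone. They were on chromosome 2 from 63148763 to 63159173 (plus), on chromosome 8 from 107282643 to 107294083 (plus) and on chromosome 22 from 28371321 to 28382684 (minus). In digest B the 5' zone of all 3 was also covered in full, but the 3' zones were covered over 83.7%, 53.9% and 100%. The largest leans to the 3' end were on chromosome 15 from 101557616 to 101567992 (plus), on chromosome 17 from 56462593 to 56475880 (minus) and on chromosome 14 from 23991218 to 24004525 (minus). Digest A covered their 3' zones in full and their 5' zones not at all, and digest B covered 55.5%, 0% and 99.1% of the 5' zones. The region on chromosome 17 was therefore the one whose 5' zone neither digest reached. After the chromosome 1 region of 56.9 kb, the longest regions with at least 80% digest A cover were on chromosome 1 from 16902617 to 16934237 (minus, 31.6 kb), on chromosome 11 from 60681807 to 60707696 (plus, 25.9 kb), on chromosome 6 from 30252615 to 30276098 (minus, 23.5 kb) and on chromosome 14 from 105343082 to 105365293 (plus, 22.2 kb). Digest A covered between 80.5% and 92.9% of these, and digest B between 95.01% and 99.5%.

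Most long single-strand peaks had a close neighbour on their own strand. The next same-strand peak was within 5 kb on the 5' side of 1014 (55.9%, 53.5 to 58.2%) and on the 3' side of 1056 (58.2%, 55.9 to 60.5%), against 50.5% on each side for all autosomal DRIPc peaks. The median gap was 2814 bp on the 5' side and 2053 bp on the 3' side, against 4824 bp for all. One side or the other had such a neighbour in 1420 (78.2%), and both sides in 650 (35.8%). These shares were near the 72.4% and 28.7% of all autosomal peaks, and nearer still to the 75.1% and 33.3% of single-strand peaks of 5 to 10 kb. Same-strand DRIPc peaks covered 37.2% of the second kb before the 5' end and 40.2% of the second kb past the 3' end. At 10 kb they still covered 28.9% and 31.4%. Single-strand peaks of 5 to 10 kb had a neighbour within 5 kb in 53.0% (51.9 to 54.1%) and 55.4% (54.2 to 56.5%).

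Some of these neighbours began where the long peak ended. In the list, 7138 pairs of same-strand peaks had the next start 1 past the last end, while 68 pairs had gaps of 2 to 10 bp. Whether such pairs were 1 stretch that the peak calling had split was not tested. Of the long single-strand peaks, 473 (26.1%, 24.1 to 28.1%) adjoined another same-strand peak, against 15.3% of all autosomal peaks. The share was 21.2% (20.3 to 22.2%) for single-strand peaks of 5 to 10 kb. It was 22.8% (19.3 to 26.6%) for long peaks that touch the opposite strand. Of the long single-strand peaks, 41 adjoined at both ends (2.26%), against 1.47% of all autosomal peaks and 1.78% of single-strand peaks of 5 to 10 kb. The adjoining piece had a median length of 2964 bp on the 5' side (240 regions) and 3402 bp on the 3' side (274 regions). With adjoining pieces joined, the longest stretches with at least 2 of the long peaks were on chromosome 1 from 148257457 to 148307684 (5 minus strand peaks over 50.2 kb), chromosome 6 from 165961872 to 166010023 (4 minus strand peaks over 48.2 kb) and chromosome 5 from 5449328 to 5492959 (4 plus strand peaks over 43.6 kb). Digest A covered 100%, 9.03% and 15.01% of these.

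Joining same-strand peaks across gaps of up to 5 kb gave longer chains. The 1815 regions fell into 1651 chains with a median span of 21992 bp and a median of 3 peaks, and 395 chains were a single peak. Chains with at least 2 of the long peaks numbered 133 and held 297 of them (16.4%). The longest were on chromosome 13 from 74543051 to 74695932 (minus, 152.9 kb, 29 peaks), chromosome 2 from 69248690 to 69373896 (plus, 125.2 kb, 19 peaks) and chromosome 3 from 36421831 to 36543344 (plus, 121.5 kb, 22 peaks). Digest A covered 2.89%, 15.3% and 4.33% of these chains, digest B 5.37%, 55.7% and 12.5%, and neither RNase H nor K562 had a peak in them. Over the autosomes, 13 of the 14 such chains of at least 100 kb held a long single-strand peak. The span of a chain includes the length of its peaks, by which the regions were chosen, so this count is a description only.

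Signal of the opposite strand was seldom close, as at other single-strand peaks. Beyond the 5' end, 90 regions (4.96%, 4.01 to 6.06%) had an opposite-strand peak within 5 kb, and beyond the 3' end 49 (2.70%, 2.00 to 3.55%). For all autosomal single-strand peaks these shares were 5.95% and 4.14%. The median distance to the opposite strand was 159105 bp on the 5' side and 191238 bp on the 3' side. For single-strand peaks of 5 to 10 kb it was 149738 and 159469 bp, and for all autosomal peaks 120608 and 124613 bp. The rule removed peaks that overlap the opposite strand, which also limits what can lie next to the ends. The nearest neighbour of either strand was of the same strand for 89.6% on the 5' side and 90.03% on the 3' side, against 84.8% and 84.7% of all autosomal peaks. Among the 587 regions with another long single-strand peak within 50 kb, that peak was on the same strand in 564 (96.1%, 94.2 to 97.5%). Where the nearest one was over 1 Mb away, it was on the same strand in 194 of 349 (55.6%, 50.2 to 60.9%). Regions that are nearest to each other are each counted here. The same shares were not computed for other DRIPc peaks, so it is not known whether they are particular to the long peaks.

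By chromosome, long single-strand peaks were least frequent where DRIP cover was high. They made up 2.92% (2.49 to 3.41%) of the DRIPc peaks of chromosome 6 and 2.68% (2.23 to 3.18%) of those of chromosome 4. On chromosomes 16, 19, 22, 17 and 20 the shares were 0.940%, 0.971%, 0.991%, 1.07% and 1.15%. Over the 6 chromosomes with the least digest A cover (13, 18, 4, 8, 5 and 2) the share was 2.44% (2.24 to 2.65%), and over the 6 with the most (20, 16, 1, 22, 17 and 19) it was 1.62% (1.46 to 1.80%). Chromosome 1 was an exception among the latter, with 2.45% (2.14 to 2.78%). The rank correlation with digest A cover over the 22 chromosomes was -0.67 (Pearson's r -0.71). Chromosomes share libraries and differ in base content, and this is a description. The strand rule bears on these shares, since on chromosome 19 58 DRIPc peaks were at least 10 kb long and 27 of them carried 1 strand only, while on chromosome 18 all 34 did.

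The DRIP cover of the regions followed that of their chromosome. Digest A touched all 27 on chromosome 19, 95.3% of 43 on chromosome 17 and 90.5% of 21 on chromosome 22. It touched 44.1% of 68 on chromosome 8 and 29.4% of 34 on chromosome 18. The rank correlation of this share with digest A cover of the chromosome was 0.80 over 22 chromosomes (Pearson's r 0.81). The touched share of all DRIPc peaks was not computed by chromosome, so it is not known whether this is particular to the long peaks. In windows of 5 Mb, the densest was chromosome 1 from 145 to 150 Mb, with 21 regions among 306 DRIPc peaks, all 21 touched by digest A. Chromosome 6 from 145 to 150 Mb and chromosome 9 from 135 to 140 Mb held 12 each. Chromosome 1 from 240 to 245 Mb held 11, all on the minus strand. Windows were picked after their values were seen, and the median window with any region held 3.

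**Figure D5:**
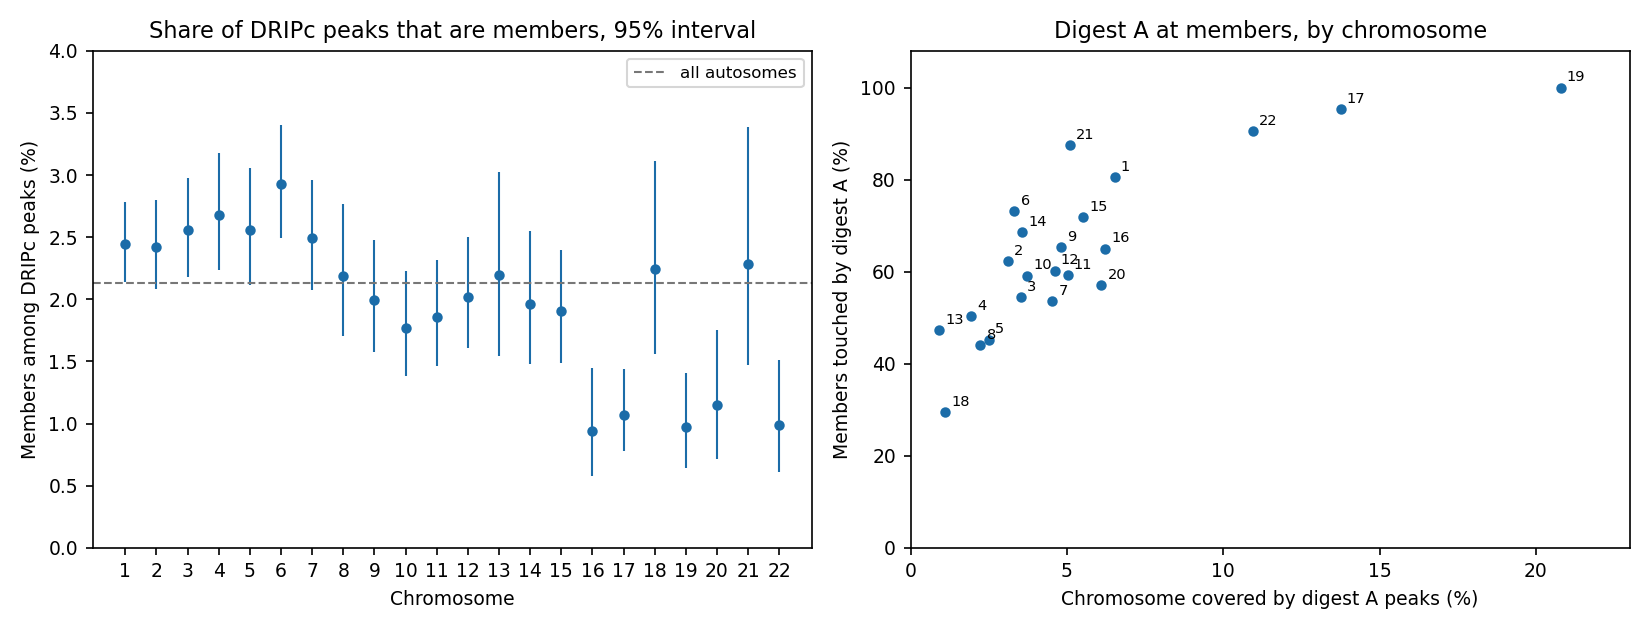
Left, long single-strand peaks ("members") as a share of the DRIPc peaks of each chromosome, with exact 95% intervals and the share over all autosomes (2.13%, dashed). Right, share of these peaks touched by digest A against the share of the chromosome covered by digest A peaks, each point a chromosome; chromosome 19 is highest on both axes and chromosome 18 lowest among the touched shares.

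A part of the long single-strand peaks had no peak in the NT2 DRIP lists other than RNase H. In 447, neither digest nor RNase A had a peak. Digest A, digest B or RNase A touched 75.4% of the long single-strand peaks and 61.1% of all autosomal DRIPc peaks. Regions without such a peak were thus less common among the long peaks, where a longer peak is more easily touched. The median length of the 447 was 13113 bp, and that of the other 1368 was 12730 bp. A same-strand DRIPc peak lay within 5 kb of 64.7% (60.02 to 69.1%) of them, against 82.7% (80.6 to 84.6%) of the others. K562 touched 17 of the 447 (3.80%, 2.23 to 6.02%) and 692 of the 1368 (50.6%, 47.9 to 53.3%), and RNase H touched 2 and 66. An opposite-strand peak within 5 kb was found at 3.58% (2.06 to 5.75%) and 8.70% (7.26 to 10.3%). The share of regions without such a peak was highest on chromosome 18, with 18 of 34, and chromosome 4, with 51 of 125 (40.8%), and it was 0 of 27 on chromosome 19 and 0 of 21 on chromosome 22. The same split was not made over all autosomal DRIPc peaks, so it is not known whether these contrasts are particular to the long peaks. The lack of a peak says that the region was not called there, and a peak below the authors' threshold cannot be seen in these lists. Beside the peaks on chromosomes 4 and 8 named above, the longest with no peak in any of the 5 lists were on chromosome 8 from 127685428 to 127723536 (plus, 38.1 kb), chromosome 6 from 102390445 to 102428214 (minus, 37.8 kb) and chromosome 10 from 52972670 to 53010032 (plus, 37.4 kb).

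The same rule on the mouse 3T3 DRIPc-seq list gave a set of similar kind. On chromosomes 1 to 19, 1214 of 39004 peaks (3.11%, 2.94 to 3.29%) were at least 10 kb long with no overlap on the opposite strand, 602 of them plus and 612 minus. Their median length was 14795 bp and the longest was 60.1 kb. The 3T3 DRIP list touched 750 of them (61.8%, 59.0 to 64.5%), against 58.8% of all 3T3 DRIPc peaks, and covered a mean of 22.9% of their length. Its cover was 23.04% in the 5' zone and 24.5% in the 3' zone, and 47.7% (43.6 to 51.8%) of those that differed leaned to the 5' end. The mouse list was made in another way: all its edges fall on multiples of 10 bp and no long peak adjoins another, so lengths and counts are not compared between the species.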

How the data were processed

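The authors deposited BED lists of peaks, and their start and end positions in base pairs are the values used; no height, fold or p-value is in them. Per the submitters' processing notes, BWA 0.6.1, TopHat2 2.0.5, Bismark 0.7.7, hg19 and mm9 were used, with no role given. Peak calling, its threshold and the joining of the 2 DRIPc-seq samples were steps not given in the sources used here. Starts were read as counted from 0, as BED files are, which the files do not state. The 7138 adjoining DRIPc pairs, whose next start is 1 past the last end, would leave no gap if starts were counted from 1. Each printed start would then be 1 bp too high and each length 1 bp too short. Samples were grouped by cell line, assay, digest and RNase, per the labels. The E14 list was not used. The regions, comparison classes and named regions were chosen with earlier results of these data known. Named regions are the 10 longest, the 5 longest on each strand, without DRIP peaks and with at least 80% digest A cover, the 3 with the largest lean to each end, the 3 longest chains and those nearest the length threshold. A touch is at least 1 bp. Cover is the share of a region's length under peaks of a list, in 10 equal bins on the region's own strand and in 10 flank bins of 1 kb on each side. No test between conditions was possible with 1 list per group, so no p-value is given. Printed intervals are exact Clopper-Pearson intervals at 95% from scipy 1.17.1 (Python 3.11.15). To sort the alternatives into same and moved, mean cover was given such an interval as if it were a count of regions. The ratio of shares between the least and most covered chromosomes was given a normal interval on the log scale. The touch counts were checked with bedtools 2.31.1, and the functions were tested on simulated lists. Chromosomes were taken to end at the last listed position. Tables were handled with pandas 2.3.3 and numpy 2.4.6, and plots were drawn with matplotlib 3.10.9.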

Additional observations from a re-analysis of the deposited data

How the results depend on the processing

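Each list is 1 library or 1 pooled list without counts, so depth, replicate spread and signal below the calling threshold limit every value, and no paired analysis was possible because no result comes from a test between samples. Under the alternatives, 53 values were the same within their 95% interval (a number of regions, within 1.5 times), 43 moved, and no share leaning to an end whose interval excluded 50% fell below it. The 53 include, for each DRIP list, the share leaning to the 5' end among touched regions only. That share could not differ, since regions without a peak of the list have no higher end and were never counted. The RNase H share leaning to the 5' end, with an interval that included 50%, crossed from 45.7% to 80% in regions with no close same-strand peak. The plus strand share stayed between 50.8% and 52.5%. The number of regions was 524 at 15 kb or more, 3279 at 8 kb or more and 3842 with same-strand peaks within 1 kb merged first.

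At 15 kb or more, the shares touched were 58.8% (digest A), 65.8% (digest B), 49.6% (RNase A), 4.96% (RNase H) and 35.9% (K562), and the mean cover was 18.6%, 32.5%, 15.2% and 8.91% for digest A, digest B, RNase A and K562. With adjoining peaks joined first, an alternative chosen after seeing the data, as was leaving out regions with RNase H peaks, the shares were 67.9% (digest A), 74.7% (digest B), 55.7% (RNase A) and 41.9% (K562). Asking for cover of at least 50% of the region gave 19.6%, 39.1%, 16.1%, 0.165% and 9.04% for digest A, digest B, RNase A, RNase H and K562. With only the longest 50% of each DRIP list, the shares were 48.04%, 55.5%, 36.4%, 1.71% and 26.4% in the same order, and the mean cover of digest A, digest B, RNase A and K562 was 20.1%, 35.2%, 16.3% and 10.2%.

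Among regions with no same-strand peak within 5 kb, the share leaning to the 5' end was 60.9% for digest B, 59.0% for K562 and 80% for RNase H (of 10 regions, interval 44.4 to 97.5%). The share with a same-strand neighbour was 47.1% (5' side) and 49.8% (3' side) within 2 kb, 66.7% and 67.6% within 10 kb, and 34.1% and 36.6% after merging within 1 kb. The share with an opposite-strand neighbour was 2.20% and 1.10% within 2 kb, and 8.60% and 5.95% within 10 kb.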
